A study of Mus musculus with 23 samples.

Results

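Reads assigned to satellite repeats were examined in poly(A)-selected, strand-specific RNA from whole spinal cord of PS19 mice and their littermates. The satellite rows were those of class Satellite in a table of 1135 repeat subfamilies. They numbered 8: IMPB_01, MMSAT4, ZP3AR, SUBTEL_sa, GSAT_MM, SYNREP_MM, MurSAT1 and CENSAT_MC. MurSatRep1, a mouse repeat with a similar name, has class Unknown in the table and was not a member, but its values are given beside those of MMSAT4. PS19 mice were heterozygous for a human tau transgene, which carries a disease mutation and is driven by the mouse prion protein promoter. The controls were wild-type littermates. Of the 23 samples, the younger age (4 months) contributed 5 from each genotype. The older age (9 months) contributed 7 from PS19 mice and 6 from controls. Neither sex nor a processing batch is named in the labels, and the table holds repeats and no genes, so the transgene and the markers of the tissue were not analysed here.

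Satellites are tandem arrays of short units, found mainly at and around centromeres and near chromosome ends. In the mouse, the major satellite (GSAT_MM) forms the pericentromeric heterochromatin and the minor satellite (SYNREP_MM) lies under the kinetochore. Both are normally packed in chromatin bearing repressive histone marks, and their transcripts are followed as a readout of heterochromatin, whose loss has been reported in tauopathy models. RNA without a poly(A) tail is largely lost in a poly(A) selection. The names of SUBTEL_sa and the family entry of CENSAT_MC (centr) point to subtelomeric and centromeric arrays. A read can come from an array's own transcript or from a satellite unit inside another RNA, and the table does not separate these.

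Values are normalized reads, that is, the reads of a subfamily after division by the size factor of the sample. A 9-month sample held 338090 to 590194 repeat reads and a 4-month sample 529522 to 2168280. The younger group was split, since replicates 1 to 3 of either genotype had repeat totals of 1494944 to 2459738 normalized reads, whereas replicates 4 and 5 had only 471178 to 779835. The older group lay at 370990 to 539759. Because the total moved this much, the tested satellite rows were compared both as values and as shares of the repeat total of the sample. Replicates were numbered in accession order, and the labels do not state that each sample is a separate mouse, so p-values measure only the spread between these samples, which may be technical. At 9 months, PS19 replicates 1 to 5 carry lower sample numbers than every control, and only PS19 replicates 6 and 7 do not. In whole tissue, fewer cells of a type and less RNA per cell cannot be told apart.

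The satellite signal came almost entirely from 3 rows, and the classical major and minor satellites contributed next to nothing. In 9-month controls IMPB_01 made up 65.8% ± 3.04 (SD, n = 6) of the satellite signal, MMSAT4 19.4% ± 4.42 and ZP3AR 14.3% ± 1.58. In PS19 samples of that age the shares were 60.8% ± 4.07 (SD, n = 7), 26.8% ± 4.98 and 11.9% ± 1.57. The MMSAT4 share lay above the control median in 7 of 7 PS19 samples, and the ZP3AR share lay below it in 7 of 7. For IMPB_01 it was below in 6 of 7. The groups overlapped for each of the 3 rows. Because the 3 shares are parts of one sum, a higher share of one row lowers the others, and they are not separate observations. These are shares of reads. Unit length and copy number were not taken into account, so they are not levels per copy. IMPB_01 rested on 2267 to 3557 reads per sample at 9 months, MMSAT4 on 656 to 1976 and ZP3AR on 473 to 771. Counting error at these depths was 1.82% for IMPB_01, 3.10% for MMSAT4 and 4.04% for ZP3AR.

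Of the 8 rows, 4 had a mean of at least 10 normalized reads over all samples and were tested: IMPB_01, MMSAT4, ZP3AR and SUBTEL_sa. GSAT_MM, with a mean of 9.89, fell just below this limit, and SUBTEL_sa, with 14.3, was the tested row nearest to it. SUBTEL_sa passed through its 9-month means of 22.2 in control and 17.6 in PS19, against 8.01 and 6.63 at 4 months. GSAT_MM had the reverse, with 15.7 and 27.5 at 4 months and 0.645 and 1.10 at 9. The limit thus bears on which direction with age the tested rows show. SYNREP_MM (1.65), MurSAT1 (0.487) and CENSAT_MC (0.343) lay far below. The rows were tested with limma on log2(value + 1) among all 920 repeat rows above the limit. P-values were adjusted over those 920 rows by the Benjamini-Hochberg method, and a row was called at an adjusted p under 0.05. Fold changes on this scale understate changes of scarce rows.

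The first comparison asked how PS19 and control spinal cord differed at 9 months, fitted to the 13 samples of that age. The summed satellite signal was 4784 ± 216 normalized reads in control (SD, n = 6) and 4774 ± 409 in PS19 (SD, n = 7), or 1.19% ± 0.0397 and 1.07% ± 0.0716 of the repeat total. MMSAT4 had the higher mean in PS19, and IMPB_01 and ZP3AR the lower. On the deposited values none of the 4 tested satellite rows passed in limma, against 3.37% of all 920 rows (3.04% higher and 0.326% lower). An unadjusted p under 0.05 was found for 2 of the 4 (MMSAT4 and ZP3AR). Of all 920 rows, 164 had one with 0.5 added before the log in place of 1, and 165 with 5 added. Both edgeR and DESeq2, run on the recovered reads, also called 0 of the 4, where they called 24 and 45 of all rows. As a share of the repeat total, ZP3AR and IMPB_01 fell in PS19. On that scale 2.5% of the 920 rows were called, 1.3% higher and 1.2% lower, against 2 of the 4 satellite rows. On shares edgeR and DESeq2 also called 2 of the 4, where they called 30 and 67 of all rows, 13 and 34 of them lower. With samples scaled within repeats by TMM, limma called 0 of the 4 and 17 of all rows. There ZP3AR was at -0.44 (limma adjusted p = 0.0629) and IMPB_01 at -0.28 (0.0910) on the log2 scale.

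**Figure D1:**
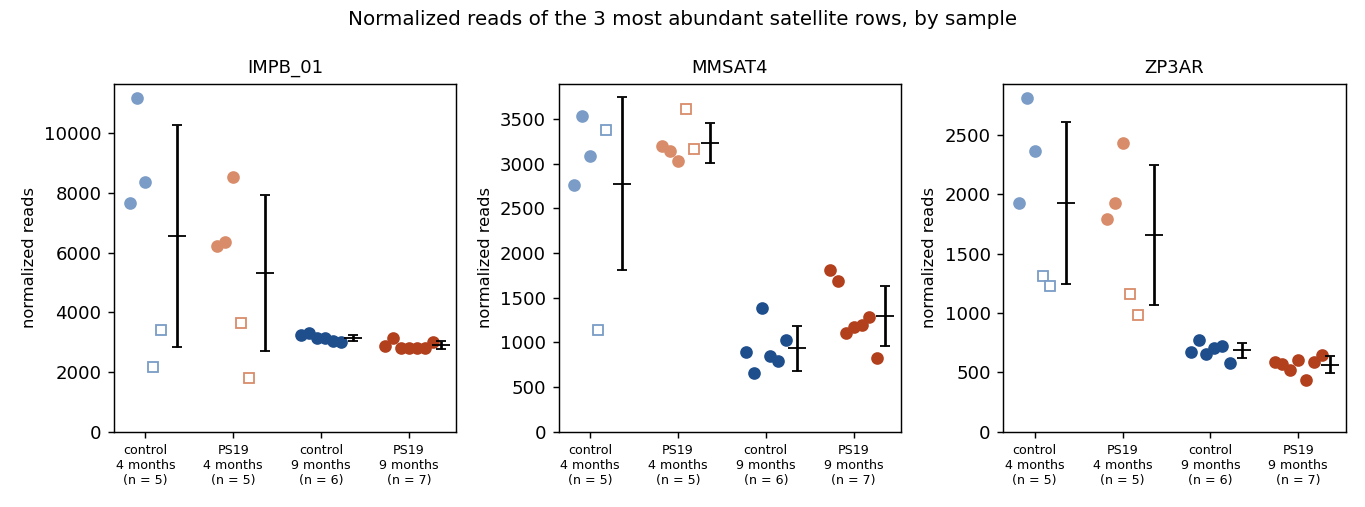
Normalized reads (vertical axes, from 0) of IMPB_01, MMSAT4 and ZP3AR in each sample of the 4 groups (horizontal axes). Filled circles are single samples, open squares are replicates 4 and 5 at 4 months, and the black bars are the mean and SD of a group. The 9-month values of IMPB_01 lie in a narrow band of 2792 to 3302, whereas the 9-month mean of MMSAT4 is higher in PS19 (1296 against 933) and that of ZP3AR lower (566 against 685).

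In the 6 controls ZP3AR had 582, 689 and 774 normalized reads as lowest, median and highest, and in the 7 PS19 samples 438, 588 and 650. All 7 PS19 samples lay below the control median and 3 lay below every control, but the groups overlapped. Means were 685 ± 65.0 (SD, n = 6) in control and 566 ± 69.0 (SD, n = 7) in PS19. The log2 fold change was -0.28 (95% interval -0.50 to -0.06, limma adjusted p = 0.163). As a share of the repeat total, ZP3AR was at 0.171% ± 0.0238 in control and 0.128% ± 0.0207 in PS19, with 5 of 7 PS19 samples below every control. That difference was -0.42 on the log2 scale (95% interval -0.64 to -0.20, limma adjusted p = 0.0362).

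IMPB_01 had 3019, 3130 and 3302 normalized reads as lowest, median and highest in control, and 2792, 2819 and 3136 in PS19. Here 5 of 7 PS19 samples fell below every control, while PS19 replicates 2 and 7, at 3136 and 3020, lay within the control range. The difference was small, with means of 3143 ± 113 (SD, n = 6) and 2893 ± 133 (SD, n = 7) and a log2 fold change of -0.12 (95% interval -0.27 to 0.03, limma adjusted p = 0.379). As a share, IMPB_01 was at 0.782% ± 0.0589 in control and 0.652% ± 0.0659 in PS19, with 7 of 7 PS19 samples below the control median and 5 below every control. The log2 difference of the share was -0.26 (95% interval -0.41 to -0.12, limma adjusted p = 0.0436).

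Both calls on shares were close to the threshold, and single samples decided them. Leaving out 1 sample at a time kept the differences between -0.48 and -0.38 for ZP3AR and between -0.31 and -0.22 for IMPB_01. Yet ZP3AR lost its call in 8 of the 13 fits (without control replicate 1, 2, 4 or 5 or PS19 replicate 1, 3, 5 or 6), with adjusted p between 0.0126 and 0.0950 over all 13. IMPB_01 lost its call in the same 8 and without control replicate 6, with adjusted p between 0.0143 and 0.102. When the PS19 group was reduced to replicates 6 and 7, the share differences were -0.25 for ZP3AR (limma adjusted p = 0.604) and -0.22 for IMPB_01 (0.433). With the spread taken from all 23 samples, the adjusted p was 0.227 for ZP3AR and 0.0751 for IMPB_01. The repeat total, by which a share is divided, had a mean of 403806 ± 31118 in control (n = 6) and of 447548 ± 47923 in PS19 (n = 7), and its part in the 2 calls was not tested.

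MMSAT4 had 658, 869 and 1382 normalized reads as lowest, median and highest in control, and 828.95, 1190 and 1807 in PS19. PS19 replicates 1 and 2, at 1807 and 1684, exceeded every control, and PS19 replicate 7, at 828.95, lay below the control median. Means were 933 ± 251 (SD, n = 6) and 1296 ± 340 (SD, n = 7), a log2 fold change of 0.47 (95% interval 0.14 to 0.80, limma adjusted p = 0.112). The difference did not pass with all samples. It passed without control replicate 3 (log2 fold change 0.59, adjusted p = 0.0127) and without PS19 replicate 7 (0.57, adjusted p = 0.0325), the only fits among the 13 in which it did. Control replicate 3 had the highest MMSAT4 value and the highest repeat total of the controls (462762). PS19 replicate 1, with the highest MMSAT4 value, likewise had the highest total of its group (539759). In PS19 replicates 6 and 7 alone the log2 fold change was 0.18 (limma adjusted p = 0.815). The part of the repeat total in the MMSAT4 difference was not tested. As a share, MMSAT4 was at 0.229% ± 0.0444 in control and 0.287% ± 0.0525 in PS19 (log2 difference 0.33, 95% interval 0.07 to 0.58, limma adjusted p = 0.162). The share, too, passed without control replicate 3 (adjusted p = 0.0433) or PS19 replicate 7 (0.0427).

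**Figure D2:**
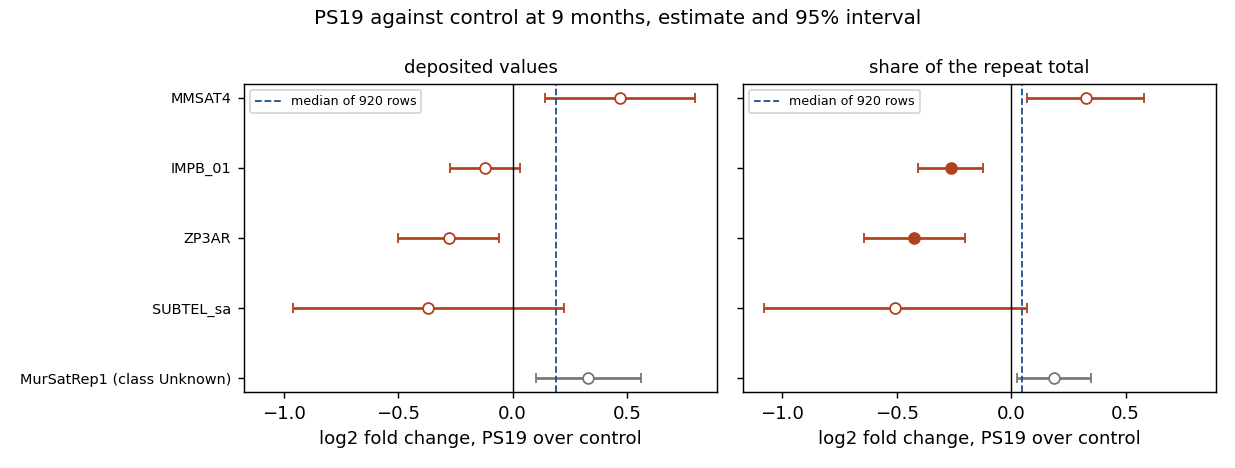
Log2 fold change of PS19 over control at 9 months (horizontal axes) with its 95% interval for the 4 tested satellite rows and, in grey, MurSatRep1, on the deposited values and as share of the repeat total. Filled points passed the threshold in limma, open points did not, and the dashed line is the median of the 920 rows tested (0.19 on values, 0.05 on shares). The points of SUBTEL_sa, ZP3AR and IMPB_01 lie left of this line on both scales.

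SUBTEL_sa was scarce, with 16 to 27 reads per control and 10 to 32 per PS19 sample. In normalized reads the controls spanned 16.8 to 29.6 and the PS19 samples 11.01 to 25.2. The log2 fold change of -0.37 had a 95% interval of -0.96 to 0.22 (limma adjusted p = 0.484). As a share the difference was -0.51 (95% interval -1.08 to 0.07, limma adjusted p = 0.362). Counting error was 23.9% for a single sample, and the CV between samples was 22.3% in control and 38.1% in PS19.

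Set against all repeats, 3 of the 4 tested satellite rows had a negative log2 fold change on values at 9 months, against 230 of all 920 rows. The median was -0.20 for the satellite rows and 0.19 for all 920. Among the 4, the position in the ranking of all 920 fold changes was at the 4.90 percentile for SUBTEL_sa, 6.53 for ZP3AR, 14.4 for IMPB_01 and 80.5 for MMSAT4. At 4 months, where no row was called, the positions on values were 0.762, 17.0, 14.0 and 95.2 in the same order. On shares at 9 months 3 of the 4 were negative, against 401 of the 920. The median there was -0.34 for the satellite rows and 0.05 for all rows. The rows of the remaining small classes (Unknown, Other, RC and RNA, MurSatRep1 included) numbered 41. Of these 20 were tested, and none of the 20 passed in either direction on values or shares (limma), their medians being 0.19 and 0.04.

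The ratio between satellite rows does not depend on the scaling of a sample. MMSAT4 stood at 1.39 ± 0.463 reads per ZP3AR read in control (SD, n = 6) and at 2.32 ± 0.628 in PS19 (SD, n = 7). On this ratio every PS19 value exceeded the control median (7 of 7) and 5 exceeded every control. For MMSAT4 per IMPB_01 read the values were 0.298 ± 0.0834 and 0.447 ± 0.112, with 3 of 7 PS19 samples above every control. The ZP3AR to IMPB_01 ratio was 0.218 ± 0.0174 and 0.196 ± 0.0222, with 3 of 7 PS19 samples below every control. At 4 months MMSAT4 per ZP3AR read was 1.52 ± 0.721 in control and 2.20 ± 0.906 in PS19 (SD, n = 5 each). MMSAT4 per IMPB_01 read was 0.511 ± 0.279 and 0.820 ± 0.574 there, and ZP3AR per IMPB_01 read 0.349 ± 0.147 and 0.347 ± 0.110. The higher MMSAT4 ratios in PS19 were thus not limited to the older age, and the groups overlapped at both ages. These ratios were formed after the values had been seen and are given without a test.

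The ratio of MMSAT4 to MurSatRep1 lay between 0.429 and 0.617 in all 23 samples. MMSAT4 reads per MurSatRep1 read were 0.573 ± 0.0223 in 4-month control, 0.571 ± 0.0314 in 4-month PS19 (SD, n = 5 each), 0.485 ± 0.0478 in 9-month control (SD, n = 6) and 0.535 ± 0.0637 in 9-month PS19 (SD, n = 7). Over the same samples the values themselves spanned 658 to 3610 for MMSAT4 and 1512 to 6090 for MurSatRep1. MurSatRep1 was at 1902 ± 322 in control and 2389 ± 360 in PS19 at 9 months (log2 fold change 0.33, 95% interval 0.10 to 0.56, limma adjusted p = 0.110), and 7 of 7 PS19 samples were above the control median. The difference had the sign of that of MMSAT4 and did not pass. Among the fits that left out 1 sample, it passed without control replicate 3 (limma adjusted p = 0.0203).

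**Figure D3:**
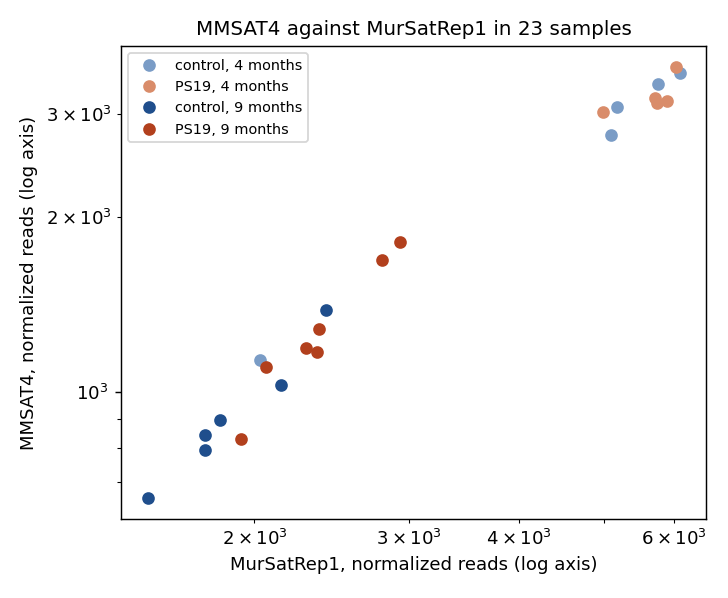
MMSAT4 (vertical axis) against MurSatRep1 (horizontal axis) in normalized reads, both on log axes, with 1 point per sample coloured by genotype and age. The points lie close to a line, with MMSAT4 between 658 and 3610. Control replicate 4 at 4 months, at 1136, lies among the 9-month samples.

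Within the 9-month samples, after the group means had been removed, the rows most like each satellite row were sought among 478 others with a mean of at least 50, on shares of the repeat total. For MMSAT4 these were BGLII_B, an ERVK LTR (Pearson correlation 0.92), MurSatRep1 (0.88) and L1MDa, an L1 LINE (0.86). IMPB_01 was most like Tigger14a, a DNA transposon (0.93), RMER21A, an ERV1 LTR (0.90), and MIR3, a SINE (0.89). ZP3AR was most like RMER12, an ERVK LTR (0.87), RMER21A (0.87) and RMER17C2, an ERVK LTR (0.84). Between the satellite rows the values were 0.74 for IMPB_01 with ZP3AR, -0.65 for IMPB_01 with MMSAT4 and -0.66 for ZP3AR with MMSAT4. So the shares of ZP3AR and IMPB_01 varied together from sample to sample and that of MMSAT4 varied against both within the groups. ZP3AR ranked only 34 of 478 among the rows like IMPB_01, and IMPB_01 ranked 13 among those like ZP3AR. Other repeats thus varied with them more closely. These correlations over 13 samples are descriptions. All rows of a sample share its library and its total, and the highest of 478 values is high by selection.

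On values IMPB_01 was also among the steadiest rows of the table at 9 months. Its SD within groups was 0.06 on the log2 scale of values, which put it at the 0.109 percentile of the 920 rows, whose median was 0.40. For comparison ZP3AR had 0.17 and MMSAT4 0.37. On shares the SD of IMPB_01 was 0.14, at the 9.90 percentile. Among the 140 most abundant rows at 9 months, 1 had a lower SD than IMPB_01 on values and 76 on shares. As a share it was thus not among the steadiest of the abundant rows.

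**Figure D4:**
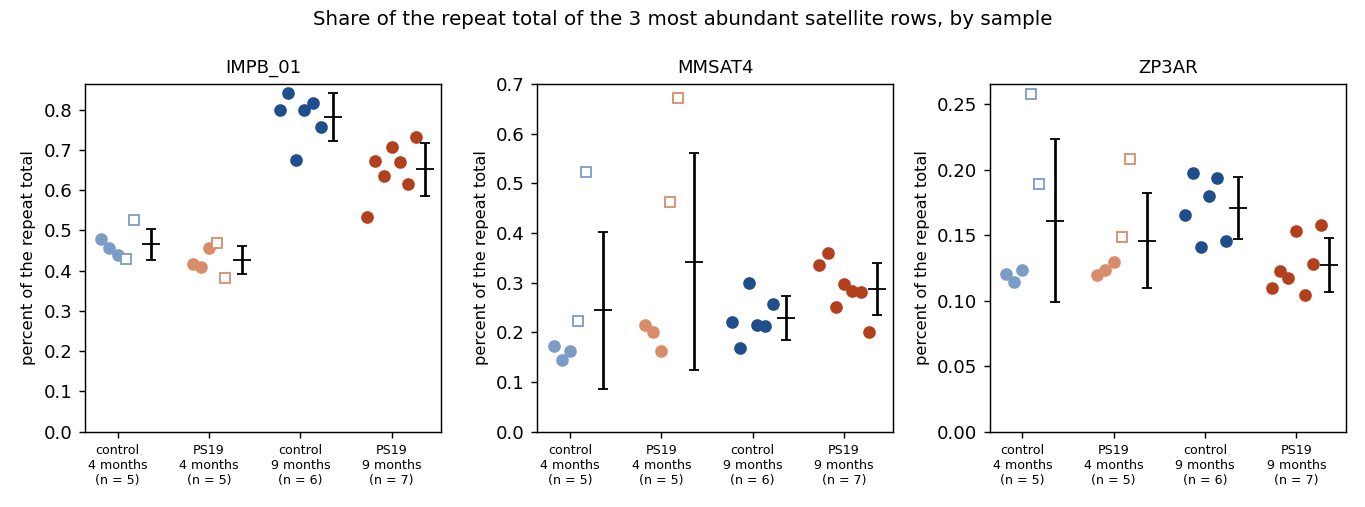
Share of the repeat total in percent (vertical axes, from 0) of the same 3 rows in each sample of the 4 groups, drawn as in the plot of normalized reads. The IMPB_01 shares of 9-month samples (0.533% to 0.842%) lie above those of 4-month samples (0.383% to 0.527%). The MMSAT4 share is spread widely at 4 months, with 3 of the open squares above every other point.

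At 4 months no satellite row was called between genotypes. In limma 0 of the 4 tested rows passed on values, where 0% of the 920 rows were called and 0 had an unadjusted p under 0.05. On shares 0 of the 4 passed as well, again with 0% of the 920 called and with 4 of the 920, none of them a satellite row, at an unadjusted p under 0.05. With edgeR and DESeq2 0 rows were called on either scale, and 0 were called with a term for replicates 1 to 3. SUBTEL_sa, with 1 to 14 reads per sample, had a log2 fold change of -0.70 on values (95% interval -2.32 to 0.91) and -0.71 on shares (95% interval -2.01 to 0.60). The intervals were wide, so this does not show that the genotypes were alike.

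IMPB_01 at 4 months had 7670, 11199, 8356, 2180 and 3406 normalized reads in control replicates 1 to 5, and 6228, 6368, 8553, 3659 and 1805 in PS19 replicates 1 to 5. Its values followed the repeat total, being high in replicates 1 to 3 of both genotypes, and the share stayed between 0.383% and 0.527% in all 10 samples. On values the log2 fold change was -0.25 (95% interval -1.50 to 1.002, limma adjusted p = 0.9999). On shares it was -0.13 (95% interval -0.32 to 0.07, limma adjusted p = 0.999).

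ZP3AR had 1931, 2813, 2363, 1309 and 1225 normalized reads in the 4-month controls and 1790, 1927, 2431, 1162 and 980 in the PS19 samples, in the same order. It too was lower in replicates 4 and 5, but by less than the repeat total, so that its share was 0.114% to 0.130% in replicates 1 to 3 and 0.149% to 0.258% in replicates 4 and 5. The log2 fold change between genotypes was -0.22 on values (95% interval -1.21 to 0.77, limma adjusted p = 0.9999) and -0.10 on shares (95% interval -0.62 to 0.43, limma adjusted p = 0.999).

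MMSAT4 had 2758, 3534, 3088, 1136 and 3376 normalized reads in the 4-month controls and 3203, 3140, 3031, 3610 and 3165 in the PS19 samples. Unlike the other 2 rows it did not follow the repeat total. In 9 of the 10 samples it lay between 2758 and 3610, and only control replicate 4 stood apart. The log2 fold change was 0.32 on values (95% interval -0.66 to 1.29, limma adjusted p = 0.9999), and it went to 0.02 without control replicate 4. On shares it was 0.44 (95% interval -0.52 to 1.40, limma adjusted p = 0.999). MurSatRep1 showed the same low sample, at 2031 in control replicate 4 against 4978 to 6090 in the other 9.

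The next comparison asked whether the PS19 effect differed between ages. In limma 0 of the 4 satellite rows passed this interaction on values or shares, where 0% of the 920 rows were called on both scales. An unadjusted p under 0.05 was found for 0 of the 4. With 0.5 added before the log in place of 1, it was found for 8 of the 920 rows on values and 47 on shares. Both edgeR and DESeq2 called 0 of the 4. Of all rows, edgeR called 0 on values and 2 on shares, and DESeq2 called 1 and 4. For the shares that were called at 9 months, the effect in the older group less that in the younger was -0.33 for ZP3AR (95% interval -0.84 to 0.19) and -0.14 for IMPB_01 (95% interval -0.38 to 0.10), with a limma adjusted p of 0.933 for both. The call at 9 months and its absence at 4 months are thus not shown to differ.

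Between ages, MMSAT4 and ZP3AR had lower and SUBTEL_sa higher values at 9 than at 4 months, in a table in which most rows were lower at 9 months, and the direction of MMSAT4 and ZP3AR turned under TMM scaling. In control 4 of the 4 tested rows passed on values (85.4% of all 920 rows), 3 lower (79.3% of all) and 1 higher (6.09%). In PS19 3 of the 4 passed (83% of all), 2 lower (77%) and 1 higher (6.09%). The row called higher was SUBTEL_sa in both genotypes, and it passed the limit for testing through its 9-month means. A satellite row called lower is therefore no more than was found for most repeats. The median log2 fold change of all rows was -2.14 in control and -1.83 in PS19. Age coincides with any difference in preparation, sequencing or counting between the ages, and these cannot be told apart.

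On values MMSAT4 differed by -1.51 in control and -1.36 in PS19 (log2, 9 over 4 months; limma adjusted p = 7.18e-05 and 0.000197) and ZP3AR by -1.42 and -1.48 (limma adjusted p = 7.77e-05 and 5.51e-05). Both were less negative than the median row. With samples scaled within repeats by TMM, their signs turned, to 0.58 and 0.45 for MMSAT4 and to 0.66 and 0.32 for ZP3AR, while the calls of all rows in control went from 56 higher and 730 lower to 301 higher and 269 lower, and those in PS19 from 56 and 708 to 297 and 256. Of these turned differences only that of ZP3AR in control passed (limma adjusted p = 0.0197). As shares of the repeat total neither row passed in limma with all 23 samples weighted equally. The log2 differences were 0.06 in control and -0.06 in PS19 for MMSAT4 and 0.15 and -0.18 for ZP3AR. With sample weights both shares passed as higher in control, MMSAT4 at 0.47 (limma adjusted p = 0.0212) and ZP3AR at 0.45 (0.000247). In PS19 MMSAT4 passed at 0.44 (0.0171) and ZP3AR, at -0.03, did not (0.782). Against replicates 4 and 5 alone the shares of MMSAT4 were lower at 9 months, by -0.60 in control (limma adjusted p = 0.0390) and -0.98 in PS19 (0.00144), and those of ZP3AR by -0.38 (0.0613) and -0.48 (0.0199). No direction of MMSAT4 or ZP3AR with age thus held over these scalings.

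IMPB_01 differed by -0.82 on values in control (limma adjusted p = 0.0413) and by -0.69 in PS19 (0.0751). Its value turned to 0.21 in control and 0.17 in PS19 against replicates 4 and 5 alone, and to 1.26 and 1.11 with TMM. In control the call on values was lost in 9 of the 11 fits that each left out 1 control sample, those without any of 4-month replicates 1 to 3 and those without any of the 6 samples at 9 months. In PS19 it passed without 4-month replicate 5 (-1.04, limma adjusted p = 0.00522) and, on recovered reads, with edgeR (adjusted p = 0.0177) and DESeq2 (0.0119). The share of IMPB_01 was higher at 9 months in both genotypes, at 0.782% ± 0.0589 (SD, n = 6) against 0.465% ± 0.0390 (SD, n = 5) in control and 0.652% ± 0.0659 (SD, n = 7) against 0.427% ± 0.0354 (SD, n = 5) in PS19. The ages did not overlap in either genotype, but how many of all 920 rows also separated the ages was not counted. Log2 differences were 0.75 and 0.61 (limma adjusted p = 1.49e-08 and 3.13e-07), and 0.71 and 0.61 against replicates 4 and 5 alone. On shares 76% of the 920 rows were called in control, 24.7% higher and 51.3% lower, and 72.8% in PS19, 22.9% higher and 49.9% lower. Of the 4 satellite rows, 2 were called in either genotype, IMPB_01 and SUBTEL_sa, both higher. SUBTEL_sa passed the limit for testing only through its 9-month means, so its direction within this count was partly set by that limit. With no filter SUBTEL_sa was called as well (limma adjusted p = 3.26e-06 in control and 1.26e-06 in PS19). The median log2 difference of all rows on shares was -0.60 in control and -0.56 in PS19.

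SUBTEL_sa kept its direction with age on each scale tried. It had 10, 10, 6, 10 and 4 reads in the 4-month controls and 2, 12, 14, 3 and 1 in the 4-month PS19 samples, against 16 to 27 and 10 to 32 at 9 months. In control every 9-month sample (16.8 to 29.6 normalized reads) lay above every 4-month sample (4.72 to 11.3), while in PS19 the ages overlapped. Such separation of the ages was not counted over all rows. Log2 fold changes on values were 1.39 in control and 1.72 in PS19 (limma adjusted p = 0.0171 and 0.00327), 1.55 and 2.64 against replicates 4 and 5 alone, and 3.27 and 3.35 with TMM. On shares they were 2.83 and 2.94 (limma adjusted p = 2.08e-06 and 8.00e-07). The size of the change depended on the pseudocount, since 4-month samples held 1 to 14 reads. With a pseudocount of 5 in place of 1, it was 1.07 in control and 1.10 in PS19 on values and 2.21 and 2.08 on shares, and all 4 still passed (largest limma adjusted p = 0.00886).

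The major and minor satellites were at the edge of detection, and a count of 0 in a sample allows up to 3 reads. GSAT_MM, the major satellite, had 25, 38, 11, 0 and 3 reads in control replicates 1 to 5 at 4 months and 16, 16, 18, 11 and 94 in PS19 replicates 1 to 5. PS19 replicate 5 held the most (76.4 normalized reads against 12.5 to 20.8 in the other 4), and the PS19 mean of 27.5 ± 27.5 (SD, n = 5) against 15.7 ± 17.2 in control became 15.3 ± 3.82 (SD, n = 4) without it. At 9 months GSAT_MM had 0 to 2 reads per control and 0 to 3 per PS19 sample, 11 reads in all 13 samples together. In PS19 every 9-month sample lay below every 4-month sample, a separation that was not counted over all rows. In control the ages overlapped, since 4-month replicate 4 had 0 reads. GSAT_MM was not fitted against replicates 4 and 5 alone. With no filter on low values GSAT_MM was called lower at 9 months in control (limma adjusted p = 0.00162) and in PS19 (7.07e-05). In those fits 889 of the 1135 rows were called lower in control and 856 in PS19. On shares GSAT_MM passed in PS19 (limma adjusted p = 0.00143) and not in control (0.0503). There 562 rows were called lower in PS19 and 564 in control. No fold is given, since all 13 samples at 9 months are at or under 3 reads and the fitted value depends on the pseudocount.

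SYNREP_MM, the minor satellite, had 3, 7, 3, 0 and 0 reads in the 4-month controls, 3, 3, 8, 3 and 0 in the 4-month PS19 samples, and 6 reads in the 13 samples at 9 months. CENSAT_MC had 8 reads in the 10 samples at 4 months, with at most 2 in a sample, and 0 in all 13 at 9 months. MurSAT1 had 7 reads in the 10 samples at 4 months and 5 in the 13 at 9 months. With no filter, SYNREP_MM passed as lower at 9 months in PS19 on values (limma adjusted p = 0.0459) and not on shares (0.342). CENSAT_MC passed in PS19 on values (limma adjusted p = 0.0427) and on shares (0.0385), with both ages at or under 3 reads per sample. In these PS19 fits 856 of the 1135 rows were called lower on values and 562 on shares. With no filter, limma called none of GSAT_MM, SYNREP_MM, MurSAT1 and CENSAT_MC between genotypes at either age, CENSAT_MC being at 0 in all samples at 9 months. Of all rows, those fits called 29 on values and 25 on shares at 9 months, and 0 on either scale at 4 months. Since these 4 rows held at most 3 reads per sample at 9 months, the absence of a call does not show that the genotypes were alike.

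**Figure D5:**
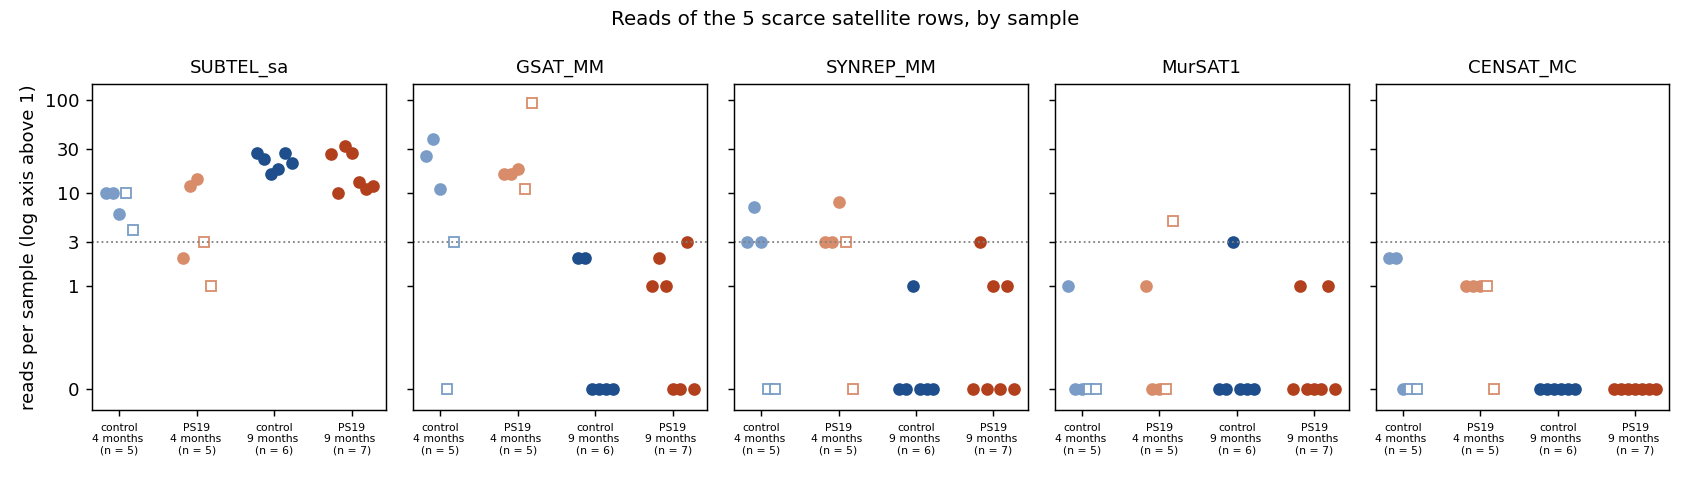
Reads per sample (vertical axis, linear from 0 to 1 and logarithmic above) of the 5 scarce satellite rows in the 4 groups (horizontal axes), with circles and squares as in the other plots. The dotted line marks 3 reads, the limit that a count of 0 allows. At 9 months GSAT_MM lies at 0 to 3 reads and SUBTEL_sa at 10 to 32, and 1 PS19 sample at 4 months has 94 GSAT_MM reads.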

How the data were processed

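The deposited table gave, for each repeat subfamily, a signal: reads divided by a size factor per sample by the authors. Per the submitters' processing notes, Trimmomatic, STAR and DESeq2 were used with build mm10 (no versions). How reads with many positions were counted, and with which program and annotation, is not given in the sources used here. Reads could therefore be divided between similar rows. All 23 columns matched a sample title, and 0 were unused. For 100 percent of values the number of reads came out whole, to 0.1 percent of a read, and these reads were used for edgeR and DESeq2. The 2 most similar replicates had a chi-square per degree of freedom of 3.59, above sampling noise.

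The values were tested with limma 3.58.1 (R 4.3.3) on log2(value + 1), with empirical Bayes and a mean-variance trend, over the 920 of 1135 rows with a mean of at least 10. Shares were values divided by the repeat total of the sample and multiplied by the mean total. Genotypes were compared within an age, and ages and the interaction over all 23 samples. Alternatives were pseudocounts of 0.5 and 5, no filter and a filter at 50, no trend, sample weights, TMM, edgeR 4.0.16, DESeq2 1.42.0, other sample sets and leaving out each sample. The fits were run on simulated reads of independent samples, with the same spread setting for every row and without the split of the 4-month replicates. This simulation does not show how the fits perform at the spread of these data. All 8 rows of the class were to be named, with the 3 rows most like each of the 3 most abundant. The members, lists and tests were chosen with earlier results of these data known. No consensus sequence of a satellite was at hand, and none is printed.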

Additional observations from a re-analysis of the deposited data

Results flagged for a closer look

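Of 58 groups of values examined, 9 had a sample far from the others of its group. Chance gives about 1 in 20 groups of continuous values, a rate that does not apply to groups of few reads. Such groups are among the 58, flagged or not, and the tested rows enter both as values and as shares. The 5 flagged groups of MurSAT1 and SYNREP_MM hold 0 to 5 reads per sample. In 3 of those 5 every other sample is at 0. GSAT_MM was at 76.4 normalized reads in PS19 replicate 5 at 4 months, against 12.5 to 20.8 in the other 4. MurSAT1 was at 4.06 in that same sample, against 0 to 0.806. MMSAT4 was at 0.522% of the repeat total in control replicate 5 at 4 months, against 0.144% to 0.224%. The SUBTEL_sa share was 0.00189% in control replicate 4 at 4 months, against 0.000336% to 0.000730%. The repeat total was 462762 in control replicate 3 at 9 months, against 370990 to 405167. The same sample had 3.15 normalized reads of MurSAT1 and 1.05 of SYNREP_MM, where the other controls had 0. MurSAT1 was at 0.798 in control replicate 1 at 4 months, where the other 4 had 0. SYNREP_MM was at 3.42 in PS19 replicate 2 at 9 months, against 0 to 1.24. The MurSAT1 and SYNREP_MM values stand for 1 to 5 reads each.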

How the results depend on the processing

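No paired analysis was possible because the labels give no replicate numbers. At 9 months on values, sample weights called 2 satellite rows (MMSAT4 and ZP3AR) where the other planned settings called 0, and leaving out 1 sample gave 0 to 1. On shares the 2 calls went to 0 with no variance trend, with all 23 samples, and with PS19 replicates 6 and 7 only, a setting chosen after seeing the data, while leaving out 1 sample gave 0 to 3. Calls among all rows at 9 months, 31 on values, were 6 with no trend, 17 with TMM, 91 with sample weights, 1 with all 23 samples and 6 with PS19 replicates 6 and 7. On shares, 23 calls became 41 with the filter at 50, 7 with no trend, 57 with sample weights, 67 with DESeq2, 13 with all 23 samples and 6 with PS19 replicates 6 and 7. Leaving out 1 sample gave 7 to 78 on values and 7 to 59 on shares. At 4 months the sign turned for the ZP3AR share with sample weights (0.039) and, leaving out 1 sample, for the ZP3AR share (-0.23 to 0.092) and IMPB_01 on values (-0.59 to 0.093). The interaction called 1 satellite row with sample weights, where all rows called rose from 0 to 418.

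Between ages most rows were called under each setting, so these satellite counts say little about satellites. On shares in control they were 1 with the filter at 50 (520 of all rows) and 4 with sample weights (775). In PS19 they were 4 with no filter (783), 1 with the filter at 50 (497) and 4 against replicates 4 and 5 (520). On values in PS19 they were 6 with no filter (915). With fewer or more rows passing the filter, fewer or more satellite rows are tested. TMM turned MMSAT4 to 0.58 and 0.45, ZP3AR to 0.66 and 0.32 and IMPB_01 to 1.26 and 1.11 (control and PS19), and replicates 4 and 5 alone turned IMPB_01 to 0.21 and 0.17. In control the MMSAT4 share turned to -0.091 with edgeR, -0.095 with DESeq2 and -0.60 against replicates 4 and 5, and the ZP3AR share to -0.38 there. In PS19 the MMSAT4 share turned to 0.44 with sample weights. Leaving out 1 sample moved the MMSAT4 share between -0.084 and 0.38 in control and between -0.27 and 0.24 in PS19. The cause of these changes was not tested. GSAT_MM, SYNREP_MM, MurSAT1, CENSAT_MC and SUBTEL_sa rest on few reads.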
